A study of Mus musculus with 4 samples.

Results

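The nuclear genes for subunits of the mitochondrial respiratory chain were followed across 4 liver pools. They were taken by gene symbol from the array annotation: rows with exactly 1 symbol beginning Ndufa, Ndufb, Ndufc, Ndufs, Ndufv, Uqcr, Cox4i, Cox5, Cox6, Cox7 or Cox8, together with Sdha to Sdhd, Cyc1 and Cycs, and without the Ndufaf assembly factors. This gave 67 genes, on 81 rows, of 19938 genes with 1 symbol. Messenger RNA was measured in the liver of 8-week-old mice labelled male, on 1 Affymetrix whole-transcript array for each genotype, and each array carried RNA pooled from 3 livers. The pools were the GHR/MDR2 double knockout (double-null), the MDR2 knockout (MDR2-null), the GHR knockout (GHR-null) and wild type. The labels name neither a strain nor how the alleles were made. MDR2, the product of Abcb4, exports phosphatidylcholine into bile, and mice without it develop cholestatic injury of the bile ducts and fibrosis. GHR is the growth hormone receptor, whose loss makes the liver resistant to growth hormone. The series title concerns growth hormone resistance in cholestatic fibrosis.

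The respiratory chain sits in the inner mitochondrial membrane and passes electrons from NADH and succinate to oxygen. Complex I oxidises NADH, complex II oxidises succinate, complex III hands electrons to the soluble carrier cytochrome c, and complex IV reduces oxygen. Complexes I, III and IV also pump protons, and ATP synthase uses the gradient. Most subunits are encoded in the nucleus, a few in mitochondrial DNA, and in hepatocytes the chain supports gluconeogenesis, urea synthesis and fatty acid oxidation.

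All values are the deposited intensities on a linear scale, and differences are of log2 intensity between 1 pool and 1 pool, so no pairwise difference has a replicate check. A gene was counted in a comparison where the higher of its values reached an intensity of 100, the median over all rows with 1 symbol. Of the 67 members, 62 reached it on at least 1 array. The other 5 (Cox4i2, Cox7b2, Cox8b, Cox8c and Ndufa4l2) stayed below it on every array. The robust SD over all genes of the non-additivity of the 4 pools, scaled to 1 pairwise difference, was 0.23 (log2), against 0.26 for a 1.2-fold difference. It includes any real departure from additivity and is not the spread of the differences themselves. Their quartiles over all genes were -0.21 and 0.17 for MDR2-null minus wild type, and -0.31 and 0.21 for double-null minus GHR-null. Over the members alone the scaled SD was 0.13, with no matching for signal level. The number of arrays limits the precision.

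The targeted genes fitted the genotypes in direction. Ghr was 935 (double-null) and 1395 (GHR-null), against 4485 (MDR2-null) and 4944 (wild type). Abcb4 was 689 in the double-null and 663 in the MDR2-null pool, against 1346 in the GHR-null and 1120 in the wild-type pool. The labels do not say which part of either gene is probed. Xist, which is transcribed from the inactive X chromosome of female cells, was 1400 in the GHR-null pool and 16 to 18 in the other pools, so every comparison with the GHR-null pool sets a pool with Xist RNA against one without it. Hepatocyte markers were present in each pool, with 15 of 15 genes above the level filter on every array. Their summed intensity was 125995 in the double-null, 128086 in the MDR2-null, 130766 in the GHR-null and 136142 in the wild-type pool. In bulk liver, fewer cells of a type and less RNA per cell cannot be told apart.

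Loss of MDR2 went with lower levels of respiratory chain subunits, with or without GHR. Set against wild type, the MDR2-null pool had 56 of the 61 members counted lower, where 54.9% of all 10258 genes were, and 5 higher (44.4% of all genes). The median difference was -0.26 (log2; quartiles -0.44 and -0.16), against -0.04 over all genes. In the double-null against the GHR-null pool, 58 of 62 members were lower, where 56.4% of all 10514 genes were, and 4 were higher (43.1% of all genes). The median was -0.35 (quartiles -0.50 and -0.18), against -0.06 over all genes. These comparisons share no array. The shift was modest in size: 30 of 61 members were at least 1.2-fold lower in the MDR2-null pool (19.3% of all genes) and 42 of 62 in the double-null pool (29.1%). At 1.5-fold the counts were 7 of 61 (3.59% of all genes) and 9 of 62 (9.94%). Without GHR loss the 7 were Ndufb3, Ndufb2, Ndufa6, Uqcr10, Ndufa1, Cox7a2l and Ndufb10. On the GHR-null background the 9 were Cox6b2, Ndufb3, Ndufb2, Ndufs8, Ndufb7, Uqcrc1, Uqcr11, Uqcrfs1 and Ndufa3. Of these, Cox6b2 passed the level filter only through the GHR-null pool, so that it had to be lower in the double-null pool. It was also among the 58 and the 42. Ndufb2 and Ndufb3 were in both 1.5-fold lists, 2 of 62 members, near the 1.88% of all genes that were. At least 1.2-fold higher was 1 member, Cycs, in the double-null pool (21.4% of all genes), and 0 in the MDR2-null pool (17.8%). No member was 1.5-fold higher in either comparison, where 6.11% and 9.99% of all genes were. With the level filter raised to an intensity of 329, 6 of 57 members were at least 1.5-fold lower in the MDR2-null pool (4.56% of all genes). In the double-null against the GHR-null pool 7 of 55 were (12.7%), no larger a share than the 13.2% of all genes. At 1.2-fold and that filter, 28 of 57 (21.8% of all genes) and 38 of 55 (34.6%) were lower.

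Over both comparisons, 55 of 62 members were lower in each, where 39.9% of all 10764 genes were, 2 were higher in each, where 29.6% were, and 28 were at least 1.2-fold lower in each, where 11.3% of all genes were. In 48 of 62 members both pools without MDR2 lay below both pools with it, without overlap. That was so for 30.0% of all genes. The opposite order occurred in 0 of 62 members and in 20.3% of all genes. Cox6b2, counted only through the GHR-null pool, was among the 55, the 28 and the 48. Without the tissue-restricted isoforms, 54 of 59 members were lower in each comparison and 27 of 59 at least 1.2-fold lower in each. The members that overlapped between pools were in complex I Ndufa2, Ndufa8, Ndufa12, Ndufc2, Ndufs4, Ndufs7 and Ndufv3, in complex II Sdhc, in complex III Uqcrb, in complex IV Cox6b1 and Cox7b, then Cycs and the restricted isoforms Cox6a2 and Cox7a1.

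**Figure D1:**
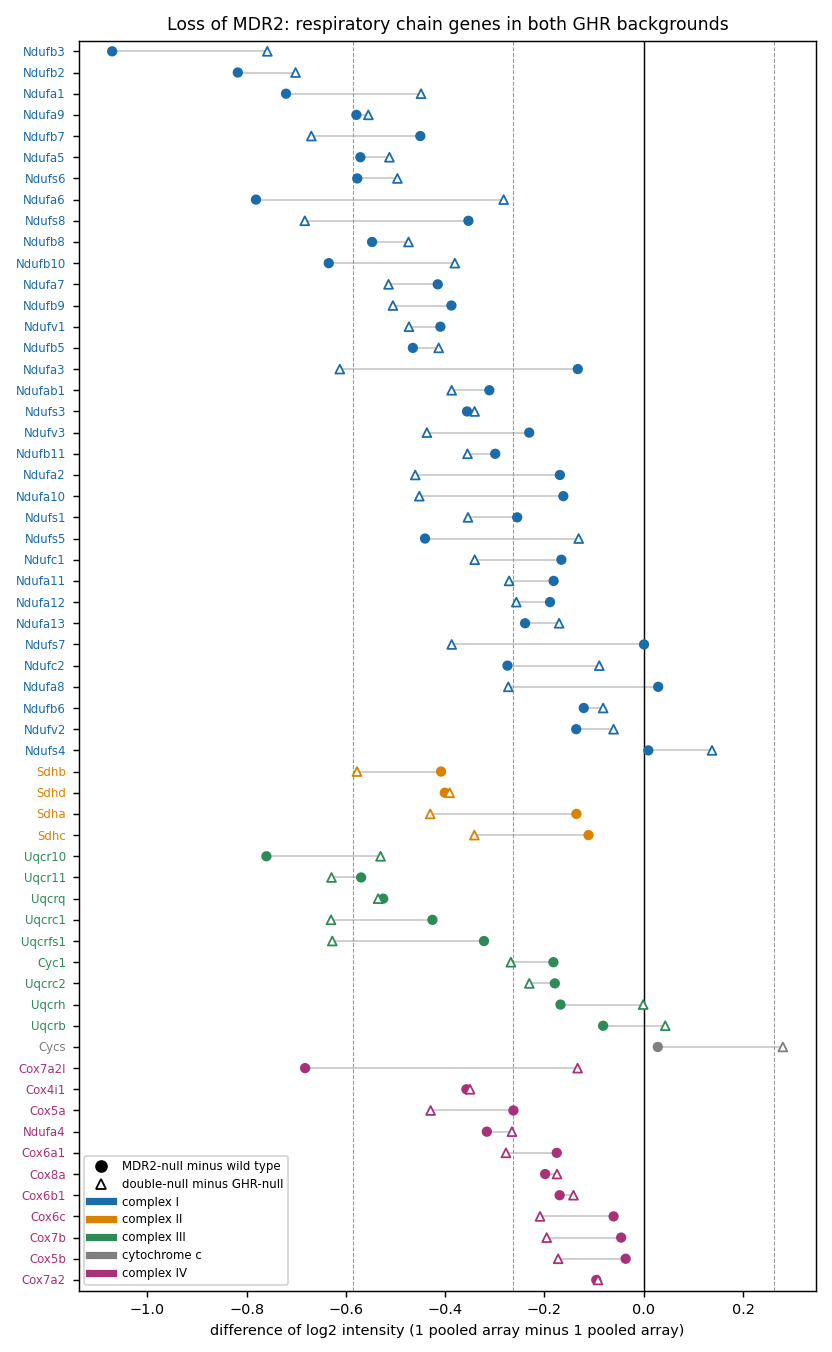
Difference of log2 intensity for the 59 members without the tissue-restricted isoforms, grouped by complex and sorted within it by the mean of both differences. Circles are MDR2-null minus wild type and triangles double-null minus GHR-null, each between 1 pooled array and 1 pooled array; dashed lines mark 1.2-fold and 1.5-fold. Nearly all points lie left of 0, with Ndufb3 farthest left at -1.07 and -0.76, and Ndufs4 and Cycs right of 0 in both.

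Complex I, the NADH dehydrogenase, held 34 of the members. Of these, 31 were lower in the MDR2-null than in the wild-type pool (median -0.33), where 54.9% of all genes were. In the double-null against the GHR-null pool 33 were lower (median -0.40), where 56.4% of all genes were. At least 1.2-fold lower were 20 and 27, where 19.3% and 29.1% of all genes were. The Ndufb genes encode accessory subunits of the membrane arm of complex I. All 9 with a row of their own were lower in both comparisons (39.9% of all genes), with a median of -0.47 in each. Ndufb3 was 188 in the double-null and 189 in the MDR2-null pool, against 318 in the GHR-null and 397 in the wild-type pool. It was 2.10-fold lower with MDR2 loss alone and 1.69-fold lower with MDR2 loss on the GHR-null background, and the pools with and without MDR2 did not overlap. Ndufb2 was 222 in the double-null and 198 in the MDR2-null pool, against 361 in the GHR-null and 349 in the wild-type pool. Ndufb7 was 386 in the double-null and 396 in the MDR2-null pool, against 614 in the GHR-null and 541 in the wild-type pool. In both genes the pools without MDR2 were again the lower ones. Ndufb10 was 159 in the double-null and 143 in the MDR2-null pool, against 207 in the GHR-null and 222 in the wild-type pool. Ndufb8 was 882 in the double-null and 776 in the MDR2-null pool, against 1225 in the GHR-null and 1134 in the wild-type pool. Ndufb9 was 2394 in the double-null and 2502 in the MDR2-null pool, against 3398 in the GHR-null and 3273 in the wild-type pool. These members too separated the pools by MDR2 genotype. Ndufb5 was 1330 in the double-null and 1317 in the MDR2-null pool, against 1771 in the GHR-null and 1818 in the wild-type pool. Ndufb6, the member of the group with the smallest differences, was 2227 in the double-null and 2345 in the MDR2-null pool, against 2357 in the GHR-null and 2550 in the wild-type pool. Ndufb11 was 2924 in the double-null and 2906 in the MDR2-null pool, against 3740 in the GHR-null and 3576 in the wild-type pool, and had rows that differed in size: the row with the higher mean gave -0.30 and -0.36, and the other -0.55 and -0.58.

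**Figure D2:**
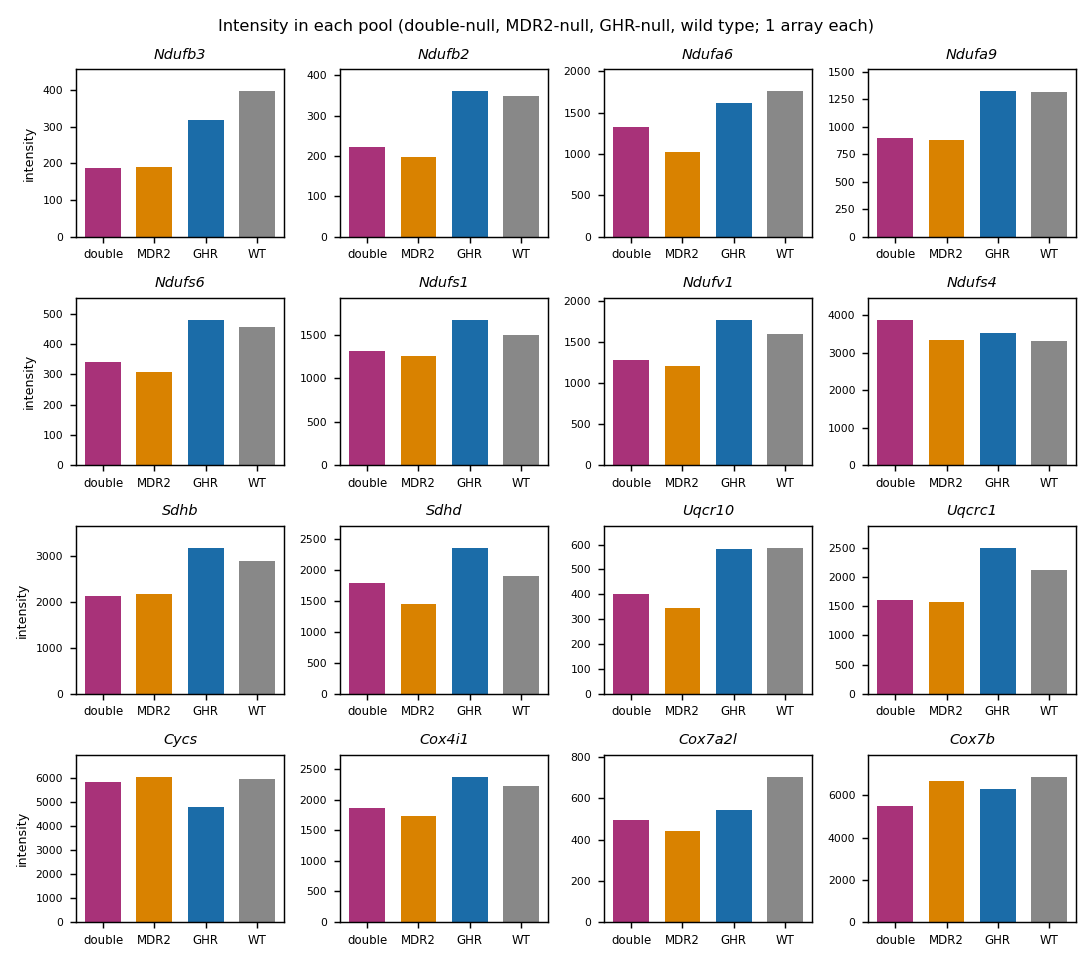
Deposited intensity of 16 members in the double-null, MDR2-null, GHR-null and wild-type pools, as bars from 0 (1 array each, so no error bars). In Ndufb3, Ndufb2, Ndufa9, Ndufs6, Sdhb, Uqcr10 and Uqcrc1 the pools without MDR2 are the lower ones, while Ndufs4 is highest in the double-null pool and Cycs lowest in the GHR-null pool.

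Among the Ndufa subunits, which are accessory proteins of both arms, 12 of 13 were lower in the MDR2-null than in the wild-type pool (54.9% of all genes). In the double-null against the GHR-null pool 13 of 13 were lower (56.4% of all genes). Ndufa6, a protein of the LYR family that binds the mitochondrial acyl carrier protein, was 1328 in the double-null and 1023 in the MDR2-null pool, against 1615 in the GHR-null and 1758 in the wild-type pool. Its difference was larger without GHR loss, at 1.72-fold lower with MDR2 loss alone and 1.22-fold lower with MDR2 loss on the GHR-null background. Ndufa1, a small X-linked membrane subunit needed for assembly, was 392 in the double-null and 355 in the MDR2-null pool, against 535 in the GHR-null and 585 in the wild-type pool. Ndufa9, which lies at the junction of the arms near the ubiquinone site, was 902 in the double-null and 879 in the MDR2-null pool, against 1325 in the GHR-null and 1313 in the wild-type pool. Ndufa5 was 373 in the double-null and 344 in the MDR2-null pool, against 532 in the GHR-null and 511 in the wild-type pool. Both were close to 1.5-fold lower in either comparison, with folds of 1.49 and 1.47 for Ndufa9 and 1.49 and 1.43 for Ndufa5. Ndufab1, the acyl carrier protein itself, was 676 in the double-null and 698 in the MDR2-null pool, against 884 in the GHR-null and 866 in the wild-type pool. Ndufa7 was 327 in the double-null and 315 in the MDR2-null pool, against 467 in the GHR-null and 420 in the wild-type pool. Ndufa10 was 1657 in the double-null and 1690 in the MDR2-null pool, against 2267 in the GHR-null and 1891 in the wild-type pool. These members had no overlap between pools with and without MDR2. Ndufa3 was 959 in the double-null and 1140 in the MDR2-null pool, against 1466 in the GHR-null and 1250 in the wild-type pool, so that it was 1.1-fold lower with MDR2 loss alone and 1.53-fold lower on the GHR-null background. Ndufa8 was 1407 in the double-null and 1557 in the MDR2-null pool, against 1700 in the GHR-null and 1526 in the wild-type pool, the only Ndufa gene above wild type in the MDR2-null pool. Ndufa11 and Ndufa13 were lower in both comparisons by 1.13-fold to 1.21-fold. The other row of Ndufa11 gave larger differences, at -0.29 and -0.54 beside -0.18 and -0.27.

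The core of complex I comprises the subunits conserved in bacteria, among them those that carry the flavin and the iron-sulphur clusters, and 6 members belong to it. Of these, 5 were lower in the MDR2-null than in the wild-type pool (median -0.30), where 54.9% of all genes were. In the double-null against the GHR-null pool 6 were lower (median -0.37), where 56.4% of all genes were. Ndufv1, which binds NADH and the flavin, was 1281 in the double-null and 1209 in the MDR2-null pool, against 1778 in the GHR-null and 1606 in the wild-type pool. Ndufs1, the largest iron-sulphur subunit, was 1312 in the double-null and 1257 in the MDR2-null pool, against 1677 in the GHR-null and 1500 in the wild-type pool. Ndufs3 was 2406 in the double-null and 2158 in the MDR2-null pool, against 3047 in the GHR-null and 2762 in the wild-type pool. In these genes the pools without MDR2 were the lower ones. Ndufs8, which carries iron-sulphur clusters toward ubiquinone, was 1193 in the double-null and 1323 in the MDR2-null pool, against 1915 in the GHR-null and 1690 in the wild-type pool. Ndufv2 was 2690 in the double-null and 2780 in the MDR2-null pool, against 2806 in the GHR-null and 3055 in the wild-type pool. Ndufs7, the subunit with the last iron-sulphur cluster, was 2682 in the double-null and 2835 in the MDR2-null pool, against 3507 in the GHR-null and 2834 in the wild-type pool. It was thus equal within 1 intensity unit between the MDR2-null and wild-type pools and 1.31-fold lower in double-null than in the GHR-null pool, which stood apart as the highest.

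Of the other accessory Ndufs, Ndufv and Ndufc subunits, only Ndufs4 was higher in both comparisons of MDR2 loss, and the rest were lower in both. Ndufs6, a zinc-binding subunit, was 341 in the double-null and 307 in the MDR2-null pool, against 481 in the GHR-null and 458 in the wild-type pool. Ndufs5 was 147 in the double-null and 154 in the MDR2-null pool, against 161 in the GHR-null and 209 in the wild-type pool. Ndufv3 was 229 in the double-null and 317 in the MDR2-null pool, against 310 in the GHR-null and 372 in the wild-type pool. All 3 were lower in both comparisons, and Ndufv3 was lowest in the double-null pool. Ndufs4, whose deletion in mice gives a Leigh-like encephalopathy, was 3886 in the double-null and 3332 in the MDR2-null pool, against 3533 in the GHR-null and 3311 in the wild-type pool. Ndufs4 was the highest complex I member by the mean of both differences, 1.01-fold and 1.1-fold above the pool with MDR2. Ndufc1 was 1149 in the double-null and 1132 in the MDR2-null pool, against 1455 in the GHR-null and 1270 in the wild-type pool. Ndufc2 was 4431 in the double-null and 3343 in the MDR2-null pool, against 4715 in the GHR-null and 4044 in the wild-type pool. It was lower in both comparisons, but its double-null pool lay above wild type.

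Complex II, the succinate dehydrogenase shared with the citric acid cycle, had 4 of 4 members lower in both comparisons (39.9% of all genes), with medians of -0.27 and -0.41. Sdha, the flavoprotein, was 3543 in the double-null and 3966 in the MDR2-null pool, against 4774 in the GHR-null and 4357 in the wild-type pool. Sdhb, the iron-sulphur subunit, was 2122 in the double-null and 2176 in the MDR2-null pool, against 3167 in the GHR-null and 2888 in the wild-type pool. In both the pools without MDR2 were lower, Sdhb by 1.33-fold and 1.49-fold. The membrane anchor Sdhc was 2514 in the double-null and 2320 in the MDR2-null pool, against 3185 in the GHR-null and 2506 in the wild-type pool. Its partner Sdhd was 1799 in the double-null and 1449 in the MDR2-null pool, against 2359 in the GHR-null and 1913 in the wild-type pool. Both anchors were highest in the GHR-null pool, and Sdhc in the double-null pool lay next to wild type.

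Complex III had 9 of 9 members lower in the MDR2-null pool (median -0.32) and 8 of 9 in the double-null pool (median -0.53), where 54.9% and 56.4% of all genes were. Uqcr10, a small membrane subunit, was 403 in the double-null and 346 in the MDR2-null pool, against 582 in the GHR-null and 586 in the wild-type pool. Uqcr11, another small one, was 1184 in the double-null and 1172 in the MDR2-null pool, against 1831 in the GHR-null and 1739 in the wild-type pool, and its other row gave differences of -0.56 and -0.65 beside -0.57 and -0.63. Uqcrq was 1630 in the double-null and 1677 in the MDR2-null pool, against 2362 in the GHR-null and 2413 in the wild-type pool. These small subunits were 1.44-fold or more lower in both comparisons. The core protein Uqcrc1 was 1618 in the double-null and 1579 in the MDR2-null pool, against 2504 in the GHR-null and 2121 in the wild-type pool. The Rieske iron-sulphur protein Uqcrfs1 was 659 in the double-null and 680 in the MDR2-null pool, against 1018 in the GHR-null and 850 in the wild-type pool. Each was highest in the GHR-null pool and more than 1.5-fold lower in the double-null pool. Uqcrc2 was 4281 in the double-null and 4001 in the MDR2-null pool, against 5023 in the GHR-null and 4530 in the wild-type pool. Cyc1, cytochrome c1, was 2482 in the double-null and 2313 in the MDR2-null pool, against 2988 in the GHR-null and 2624 in the wild-type pool. The hinge protein Uqcrh was 3675 in the double-null and 3398 in the MDR2-null pool, against 3678 in the GHR-null and 3817 in the wild-type pool. Uqcrb, which helps bind ubiquinone, was 5290 in the double-null and 5786 in the MDR2-null pool, against 5134 in the GHR-null and 6124 in the wild-type pool, with the GHR-null pool lowest. Cycs, the electron carrier cytochrome c, was 5814 in the double-null and 6050 in the MDR2-null pool, against 4788 in the GHR-null and 5933 in the wild-type pool. It did not share the lower level, and its 3 rows disagreed: one other row gave -0.05 and 0.20, and a row at intensities of 29 to 58 gave -1.0 and -0.20.

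In complex IV, leaving the tissue-restricted isoforms aside, 11 of 11 members were lower in both comparisons (39.9% of all genes), with medians of -0.18 and -0.20. At least 1.2-fold lower were 3 and 4 of them, near the shares of 19.3% and 29.1% over all genes. Cox4i1, the regulatory subunit that binds adenine nucleotides, was 1865 in the double-null and 1733 in the MDR2-null pool, against 2377 in the GHR-null and 2220 in the wild-type pool. Cox5a was 975 in the double-null and 1002 in the MDR2-null pool, against 1313 in the GHR-null and 1202 in the wild-type pool. Ndufa4, first counted in complex I and now placed in complex IV, was 1994 in the double-null and 1935 in the MDR2-null pool, against 2397 in the GHR-null and 2409 in the wild-type pool. Each had both pools without MDR2 below both pools with it. Cox7a2l, which joins complexes III and IV into supercomplexes, was 496 in the double-null and 440 in the MDR2-null pool, against 544 in the GHR-null and 706 in the wild-type pool. It was 1.60-fold lower with MDR2 loss alone but 1.1-fold lower on the GHR-null background, and the GHR-null pool was itself low. Its other row showed the same order (261 double-null, 237 MDR2-null, 264 GHR-null, 351 wild type). Cox6a1 was 2300 in the double-null and 2454 in the MDR2-null pool, against 2788 in the GHR-null and 2771 in the wild-type pool. Cox8a was 3331 in the double-null and 3020 in the MDR2-null pool, against 3760 in the GHR-null and 3466 in the wild-type pool. Cox6b1 was 5108 in the double-null and 4508 in the MDR2-null pool, against 5635 in the GHR-null and 5070 in the wild-type pool. The remaining liver members Cox5b, Cox6c, Cox7a2 and Cox7b were 1.03-fold to 1.16-fold lower in these comparisons. Cox5b was 3007 in the double-null and 3121 in the MDR2-null pool, against 3389 in the GHR-null and 3201 in the wild-type pool. Cox6c was 6813 in the double-null and 6991 in the MDR2-null pool, against 7875 in the GHR-null and 7292 in the wild-type pool. Cox7a2 was 1742 in the double-null and 1691 in the MDR2-null pool, against 1857 in the GHR-null and 1807 in the wild-type pool. In these 3 genes the pools without MDR2 were lower by small margins. Cox7b was 5481 in the double-null and 6671 in the MDR2-null pool, against 6277 in the GHR-null and 6885 in the wild-type pool, so its pools did not order by MDR2 genotype.

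Isoforms known mainly from muscle, lung, testis or hypoxic cells were near or below the level filter. Of 8, only Cox6a2 and Cox7a1, the heart and muscle forms, reached 100 in the MDR2-null or wild-type pool. Cox6a2 was 96 in the double-null and 123 in the MDR2-null pool, against 107 in the GHR-null and 105 in the wild-type pool. Cox7a1 was 149 in the double-null and 123 in the MDR2-null pool, against 147 in the GHR-null and 140 in the wild-type pool. Neither followed the MDR2 genotype. Cox6b2, the testis form, was 79 in the double-null and 71 in the MDR2-null pool, against 137 in the GHR-null and 89 in the wild-type pool, and was counted only through the GHR-null pool. Of 12 muscle and brown fat genes, these isoforms included, 7 reached 100 in the wild-type pool and 3, 4 and 3 in the double-null, MDR2-null and GHR-null pools. Acta1, the skeletal actin, was 111 (double-null), 125 (MDR2-null) and 80 (GHR-null), against 173 (wild type). The part of these markers in the result was not tested.

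An additive model was the only fit with a residual. In limma, with GHR and MDR2 status as factors over the 4 arrays, 59 of 62 members had a negative MDR2 effect. So did 6135 of all 10764 genes. The median effect was -0.32 (log2) over the members, against -0.05 over all genes. Adjusted p was under 0.05 for 1 of 62, Ndufb3, at an effect of -0.91 ± 0.15 (SE) and a limma adjusted p of 0.0448; 0.762% of all 10764 genes were called lower and 2.99% higher. The call was lost with cyclic loess (limma adjusted p = 0.0861), median centring (0.0567) or no level filter, where the lowest limma adjusted p among members was 0.327. Ndufb2 came next, at -0.76 ± 0.14 (SE) and a limma adjusted p of 0.0527. Without adjustment, limma gave a p under 0.05 in the lower direction for 26 of 62 members, where it did so for 11.4% of all genes. The pools of a genotype were not replicated, and a gene that departs from additivity widens its own error here.

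**Figure D3:**
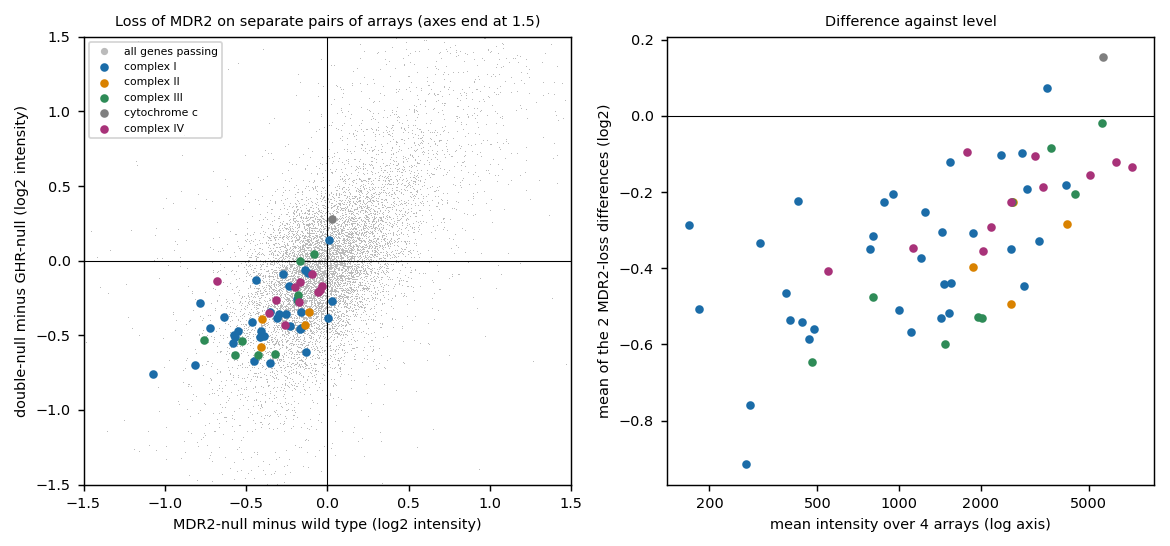
Left, difference of log2 intensity with MDR2 loss on 2 pairs of arrays that share none: MDR2-null minus wild type on the x axis and double-null minus GHR-null on the y axis, for all genes passing the level filter (grey) and the members by complex (colour), with axes ending at 1.5. Right, the mean of both differences against the mean intensity over 4 arrays (log axis); the members lie mostly below 0, and those above an intensity of 3000 lie nearer to it.

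The size of the difference varied with signal. Across the 62 members the mean log2 intensity and the MDR2-null minus wild-type difference correlated at a Pearson r of 0.42, and at 0.38 for the double-null minus GHR-null difference. This describes genes on the same arrays, which share normalization and are not independent. The 7 members with a mean intensity between 100 and 329 had medians of -0.44 and -0.38. The 13 between 329 and 1000 had medians of -0.42 and -0.46, and the 28 between 1000 and 3000 had -0.33 and -0.39. Only the 13 above 3000 stood apart, with medians of -0.14 and -0.17. Over all genes in these ranges the medians were -0.02 and -0.04, -0.06 and -0.09, -0.05 and -0.14, then -0.04 and -0.12. Of complex IV, Cox5b, Cox6b1, Cox6c, Cox7b and Cox8a were among the members above 3000. The part of signal level in the difference between complexes was not tested. Between the pairs of arrays, the members' differences correlated at an r of 0.58, and those of all genes at 0.65.

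Promoter windows are shown for the lowest and the highest member of complexes I to IV by the MDR2 differences and for those that hold a motif, since most subunits differed in the same direction. NRF1 (nuclear respiratory factor), GABPA (an ETS factor) and YY1 are the factors best known at promoters of respiratory chain genes. RefSeq windows of 300 bases on GRCm38.p6, from 250 bases before to 50 after a gene start, were found for 53 of 67 members (55 windows). Both strands were searched. The NRF1 motif GCGCANGCG was in 14 of 55 member windows (25.5%) and in 6.25% of all 32851 windows. The ETS motif CCGGAAG was in 11 of 55 (20.0%), against 8.86% of all windows, and the YY1 motif AAGATGGCG in 5 of 55 (9.09%), against 1.40%. A window held both the NRF1 and the ETS motif in 3 members' windows and both the NRF1 and the YY1 motif in 1. At least 1 of them was in 47.3% of member windows and 14.8% of all windows. The CCAAT box was in 38.2% and 37.4%, and the TATA box, searched as TATAAA, in 12.7% and 13.6%. Median GC content was 57.3% in the member windows and 52.7% in all.

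The motifs and windows were chosen after the values were seen, and the NRF1 and YY1 motifs were shortened after a first search with longer forms. The windows run 5′ to 3′ along the gene, with NRF1, ETS and YY1 matches in capitals. Ndufb3, the lowest member, held none of the 3 motifs but a CCAAT box, and Uqcr11 and Ndufa9 were the lowest members with the NRF1 and the YY1 motif. Uqcr11 held the ETS motif as well, and Ndufb7 was the next lowest member with it. Ndufs4 was the highest of complexes I to IV and held the YY1 motif.
Ndufb3 (chr1:58586147-58586446, + strand): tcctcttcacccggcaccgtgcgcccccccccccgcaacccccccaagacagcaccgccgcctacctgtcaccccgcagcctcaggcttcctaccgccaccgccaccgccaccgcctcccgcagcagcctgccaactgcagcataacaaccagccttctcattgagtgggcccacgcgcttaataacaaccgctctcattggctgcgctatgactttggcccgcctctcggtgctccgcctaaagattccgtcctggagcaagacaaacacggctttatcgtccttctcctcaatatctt
Uqcr11 (chr10:80406772-80407071, - strand): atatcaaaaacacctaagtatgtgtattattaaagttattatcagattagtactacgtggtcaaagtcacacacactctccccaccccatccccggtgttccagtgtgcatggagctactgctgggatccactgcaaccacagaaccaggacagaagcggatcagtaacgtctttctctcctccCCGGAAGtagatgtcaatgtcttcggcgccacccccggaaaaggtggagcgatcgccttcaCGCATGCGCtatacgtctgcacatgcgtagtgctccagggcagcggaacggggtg
Ndufb7 (chr8:83566508-83566807, + strand): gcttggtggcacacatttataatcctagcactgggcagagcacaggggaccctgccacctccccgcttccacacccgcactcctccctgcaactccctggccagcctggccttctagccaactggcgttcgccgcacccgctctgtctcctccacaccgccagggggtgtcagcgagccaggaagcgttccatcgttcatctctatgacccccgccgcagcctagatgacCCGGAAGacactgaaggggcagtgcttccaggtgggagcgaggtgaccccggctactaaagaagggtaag
Ndufa9 (chr6:126849095-126849394, - strand): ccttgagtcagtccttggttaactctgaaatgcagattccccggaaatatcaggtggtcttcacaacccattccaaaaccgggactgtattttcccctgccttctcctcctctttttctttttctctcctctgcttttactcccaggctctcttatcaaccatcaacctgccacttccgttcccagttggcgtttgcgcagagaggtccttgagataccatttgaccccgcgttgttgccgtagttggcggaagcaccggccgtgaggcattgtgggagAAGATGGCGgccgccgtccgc
Ndufs4 (chr13:114388045-114388344, - strand): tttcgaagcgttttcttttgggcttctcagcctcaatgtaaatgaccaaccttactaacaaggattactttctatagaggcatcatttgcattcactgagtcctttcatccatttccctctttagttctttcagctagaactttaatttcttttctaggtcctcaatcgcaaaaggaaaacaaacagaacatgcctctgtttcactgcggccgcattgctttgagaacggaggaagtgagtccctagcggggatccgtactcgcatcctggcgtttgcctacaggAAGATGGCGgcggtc

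A match in these letters is not a measured binding site. Leaving restricted isoforms aside, members with the NRF1 motif had medians of -0.43 with MDR2 loss alone and -0.38 on the GHR-null background (13 genes), and those without it -0.29 and -0.39 (36 genes). For the ETS motif the medians were -0.35 and -0.34 with it (11 genes), and -0.31 and -0.39 without it (38 genes). For both, the genes with the motif had the lower median with MDR2 loss alone but not on the GHR-null background. The medians were -0.17 and -0.39 for the 5 genes with the YY1 motif, and -0.31 and -0.38 for the 44 without it.

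Other mitochondrial gene groups were set beside the members. Of 40 assembly factors, which build the complexes, 31 of 37 counted were lower in the MDR2-null than in the wild-type pool (median -0.18), where 54.9% of all genes were. In the double-null against the GHR-null pool 35 of 37 were lower (median -0.37), where 56.4% of all genes were. Taco1, a translation activator of complex IV, was 248 in the double-null and 264 in the MDR2-null pool, against 420 in the GHR-null and 359 in the wild-type pool. Sco1, a copper chaperone of complex IV, was 178 in the double-null and 175 in the MDR2-null pool, against 308 in the GHR-null and 218 in the wild-type pool. Of 17 ATP synthase genes 14 were lower in each comparison, with medians of -0.16 and -0.24. Its small subunit Atp5k was 356 in the double-null and 329 in the MDR2-null pool, against 664 in the GHR-null and 584 in the wild-type pool. Atpif1, the inhibitor of ATP synthase, went the other way, at 4199 in the double-null and 2848 in the MDR2-null pool, against 3197 in the GHR-null and 2294 in the wild-type pool.

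Of 77 mitochondrial ribosome genes, 71 of 76 counted were lower in the MDR2-null pool (median -0.22), where 54.9% of all genes were. In the double-null pool 70 of 76 were lower (median -0.33), where 56.4% of all genes were. Mrpl22 was 172 in the double-null and 149 in the MDR2-null pool, against 336 in the GHR-null and 281 in the wild-type pool. Of 13 citric acid cycle genes, 10 were lower in the MDR2-null pool (median -0.08) and 9 in the double-null pool (median -0.21). Of 12 outer membrane and import genes, 10 and 8 were lower (medians -0.13 and -0.10). All genes had medians of -0.04 and -0.06. On the GHR-null background the citric acid cycle median lay beside that of complex IV, at -0.20.

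Transcription regulators of mitochondrial biogenesis were lower in 15 of 16 genes in the MDR2-null pool (median -0.31), where 54.9% of all genes were. In the double-null pool 11 of 16 were lower (median -0.21), where 56.4% of all genes were. Gabpa was 612 in the double-null and 540 in the MDR2-null pool, against 754 in the GHR-null and 781 in the wild-type pool. Ppargc1b, a coactivator, was 121 in the double-null and 113 in the MDR2-null pool, against 234 in the GHR-null and 174 in the wild-type pool. Its relative Ppargc1a separated by GHR instead, at 542 (double-null) against 228 (MDR2-null), and at 606 (GHR-null) against 287 (wild type). Tfam, which packages and transcribes mitochondrial DNA, was 245 in the double-null and 223 in the MDR2-null pool, against 309 in the GHR-null and 295 in the wild-type pool. Nrf1 was 127 in the double-null and 94 in the MDR2-null pool, against 116 in the GHR-null and 126 in the wild-type pool.

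Of the subunits encoded in mitochondrial DNA, 2 had a row with 1 symbol. COX2 was 9125 in the double-null and 9393 in the MDR2-null pool, against 7045 in the GHR-null and 9879 in the wild-type pool. ND3 was 5608 in the double-null and 5390 in the MDR2-null pool, against 4521 in the GHR-null and 6225 in the wild-type pool. Both were lowest in the GHR-null pool, and both were higher in the double-null than in the GHR-null pool, opposite to most nuclear members.

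**Figure D4:**
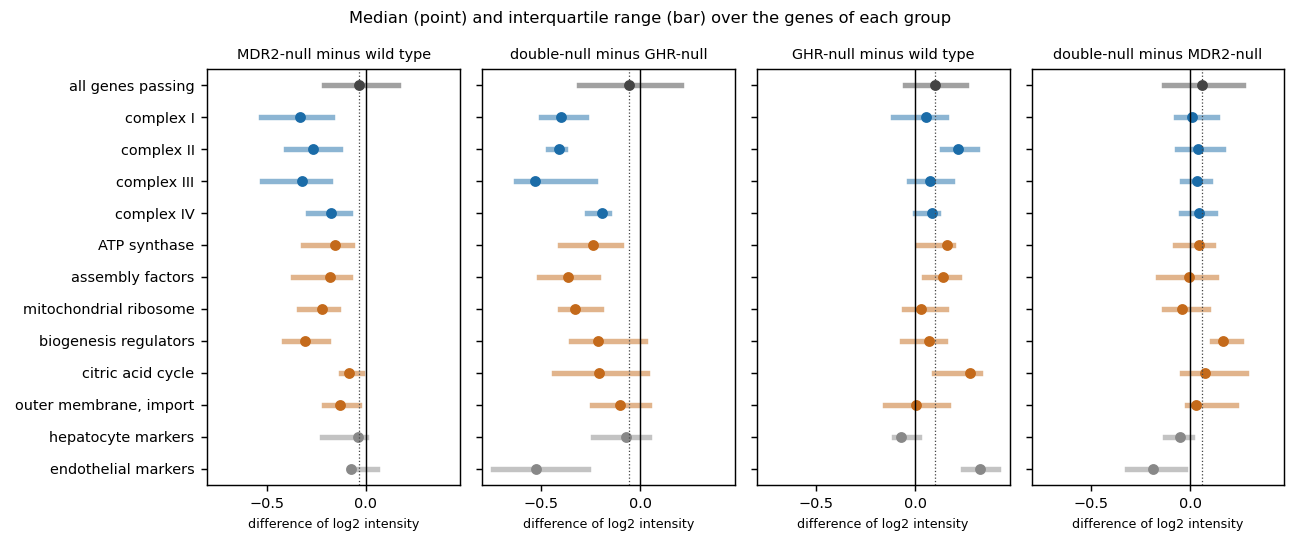
Median (point) and interquartile range (bar) of the difference of log2 intensity over the genes of each group, in 4 comparisons of 1 pooled array with 1 pooled array; the dotted line is the median of all genes passing the level filter. With MDR2 loss (left pair) complexes I to III lie at -0.27 to -0.53 and complex IV at -0.18 and -0.20, while with GHR loss (right pair) they lie between 0.01 and 0.22.

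Markers of other cell types differed with the MDR2 genotype too. Between MDR2-null and wild-type livers, macrophage markers were higher in 11 of 11 genes counted (median 1.24). Cholangiocyte markers were higher in 8 of 8 (median 0.94) and stellate and myofibroblast markers in 11 of 12 (median 0.75). Hepatocyte markers had a median of -0.04 and endothelial markers one of -0.07. Of the cholangiocyte genes, 8 reached 100 in the MDR2-null and 1 in the wild-type pool, and of the macrophage genes 11 and 8. A gene that passed the filter only through the MDR2-null pool had to be higher there, so these counts and medians were partly set by the filter. The summed intensity of 12 macrophage genes was 14490 in the double-null and 11382 in the MDR2-null pool, against 5879 in the GHR-null and 4222 in the wild-type pool. The sum over 11 cholangiocyte genes was 3031 in the double-null and 1290 in the MDR2-null pool, against 888 in the GHR-null and 719 in the wild-type pool. The sum over 12 stellate and myofibroblast genes was 11501 in the double-null and 8864 in the MDR2-null pool, against 7585 in the GHR-null and 6199 in the wild-type pool. In the double-null against the GHR-null pool, macrophage markers had a median of 1.12 (9 of 11 higher) and cholangiocyte markers 1.95 (10 of 11 higher). Stellate markers had one of 0.70 (11 of 12 higher), hepatocyte markers -0.07 and endothelial markers -0.53 (10 of 11 lower). The same limit holds, since 10 cholangiocyte genes reached 100 in the double-null and 3 in the GHR-null pool, and 11 and 8 macrophage genes did. No marker was at 0 on any array, but the lowest deposited value of any row was 6, so none could be. The part of the markers in the lower level of the members was not tested. Centred on hepatocyte markers, the members had medians of -0.23 for MDR2-null minus wild type and -0.31 for double-null minus GHR-null.

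Loss of GHR with MDR2 present left the members close to the other genes. In the GHR-null against the wild-type pool, 41 of 62 members were higher, as were 66.7% of all 10052 genes, and 21 lower (32.5% of all genes), with a median of 0.07 against 0.10 over all genes. The members' median turned to -0.05 with each array centred on its filtered genes' median (median centring). The share of members that was lower, 33.9%, became 62.9% with that centring (54.1% of all genes) and 22.6% with centring on hepatocyte markers (24.6% of all genes). At 1.2-fold, 4 members were higher (24% of all genes) and 5 lower (8.12%). At 1.5-fold 1 was higher, Cox6b2 (4.26%), and 0 lower (2.48%). The higher ones were Sdhc at 1.27-fold, Ndufs7 at 1.24-fold, Sdhd at 1.23-fold and Cox6b2, which rests on intensities of 137 and 89. The lower ones were Ndufs5 and Cox7a2l, each 1.30-fold, Ndufb3 at 1.25-fold, Cycs at 1.24-fold and Ndufv3 at 1.2-fold. All 4 complex II genes were higher, with a median of 0.22. All 13 citric acid cycle genes were higher as well, with a median of 0.27. These values come from the pool with Xist at 1400.

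Loss of GHR on the MDR2-null background gave the members no common direction. In the double-null against the MDR2-null pool 33 of 61 members were higher and 28 lower, where 57.8% and 41.6% of all 10524 genes were. The members' median was 0.01, against 0.06 over all genes, and it turned below 0 with cyclic loess and with median centring. The share that was lower, 45.9%, became 65.6% with median centring (54.5% of all genes) and 21.3% with hepatocyte centring (31.4% of all genes). No member was 1.5-fold apart in either direction, where 7.17% of all genes were higher and 3.89% lower. At 1.2-fold, 4 were higher (25.4% of all genes): Ndufc2 at 1.33-fold, Ndufa6 at 1.30-fold, Sdhd at 1.24-fold and Cox7a1 at 1.21-fold. Another 5 were lower (14.3%): Ndufa2 at 1.39-fold and Ndufv3 at 1.38-fold, then Cox6a2, Ndufa12 and Cox7b. Ndufa2 was 604 in the double-null and 837 in the MDR2-null pool, against 831 in the GHR-null and 941 in the wild-type pool. Ndufa12 was 349 in the double-null and 436 in the MDR2-null pool, against 417 in the GHR-null and 497 in the wild-type pool. Like Ndufv3, both were lowest in the double-null pool. Biogenesis regulators were higher in 13 of 16 genes (median 0.16).

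Only Sdhd was at least 1.2-fold higher with GHR loss on both backgrounds, 1 of 62 members where 9.74% of all genes were, and no member was 1.2-fold lower on both (3.34% of all genes). By any amount, 25 were higher on both (42.5% of all genes) and 12 lower on both (18.2%). Both pools without GHR lay below both pools with it in 6 of 62 members (9.57% of all genes) and above in 5 (22.9%). In limma the GHR effect was called for 0 of 62 members (0.316% of all genes were called lower and 0.204% higher); the lowest limma adjusted p among them was 0.380, and 1 member, Ndufv3, had an unadjusted p under 0.05 in the lower direction (3.52% of all genes) and 0 in the higher (9.53%). With trend and robust settings limma also called 0.

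Against wild type, the double-null pool had 56 of 61 members lower (47.9% of all 10487 genes) and 5 higher (51.4%), with a median of -0.30 against 0.01 over all genes. The share that was lower, 91.8%, became 75.4% with centring on hepatocyte markers (36.8% of all genes). This comparison shares its arrays with those above. At 1.2-fold 35 of 61 were lower (21.9%) and at 1.5-fold 4 of 61 (7.60%): Ndufb3 at 2.11-fold, Ndufv3 at 1.62-fold, Ndufb2 at 1.57-fold and Ndufa2 at 1.56-fold. Ndufs4 was 1.17-fold above wild type and Ndufc2 1.1-fold.

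Departure from additivity spread less among the members than among all genes. The difference between the GHR effects with and without MDR2 had a median of -0.05 and a robust SD of 0.18 (log2) over 62 members. Over all 10764 genes these were -0.03 and 0.32. The spreads were not matched for signal level: 7 members and 5085 of all genes had a mean intensity between 100 and 329. The members farthest from 0 were Cox7a2l at 0.55 and Ndufa6 at 0.50, then Ndufa3 at -0.48 and Ndufs7 at -0.39. At least 1.2-fold apart in opposite directions on the 2 backgrounds were 0 of 62 members for MDR2 loss (1.71% of all genes) and 0 of 62 for GHR loss (3.34%), counts near the shares over all genes.

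Rows of the same gene could disagree. The annotation gave 12 members several rows, and near-identical processed copies of such genes may share probes. Of 14 further rows, 12 had the sign of the chosen row in each comparison of MDR2 loss.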

How the data were processed

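The study's 4 arrays each carried RNA pooled from 3 livers, with 1 array per genotype, and groups follow the genotype labels. The authors used RMA in Affymetrix Expression Console 1.1, per the submitters' processing notes. The deposited values are linear intensity in whole numbers from 6 to 22355, so RMA had already background-corrected, normalized and summarised the probes, and rounding coarsens the lowest values. The sources used here name no batch. The platform annotation gave 21789 of 35556 rows exactly 1 symbol, 1621 several and 12146 none. Symbols and Entrez IDs of all 67 members matched RefSeq.

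Log2 was taken of each deposited intensity with no pseudocount, and a gene with several rows was represented by its brightest row on average. Pairwise differences have no test. The additive model on GHR and MDR2 status was fitted in limma 3.58.1 (R 4.3.3) to 10764 genes with an intensity of at least 100 on any array, with 1 residual and 4.34 prior degrees of freedom and Benjamini-Hochberg adjustment at 0.05. Tested on simulated data of that size, the MDR2 effect recovered 30% of genes changed 2-fold and 96% of those changed 4-fold, with 5 false calls. The simulation was additive, with gene variances drawn from the fitted prior and 100 genes changed at each fold. It thus matched the model by construction and does not give the error rate in these data. Changes below 2-fold were not simulated. Tables were handled in Python 3.11.15 with pandas 2.3.3.

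Values on every array are given for the targeted genes, members past 1.5-fold in any comparison, the 3 highest and 3 lowest members of each complex with loss of GHR, members called by limma, the complex I core, complex II and up to 4 genes of each other list. The members and gene lists were chosen with earlier results of these data known. Level filters, scalings, row choices, a 2-fold threshold and limma settings were varied. Rows with several symbols or none were left out.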

Additional observations from a re-analysis of the deposited data

Results flagged for a closer look

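Xist was 1400 in GHR-null liver, where it was 17 in the double-null, 18 in the MDR2-null and 16 in the wild-type pool. It was singled out because it lies outside the respiratory chain measurements and is high on 1 array of a series in which all pools are labelled male. Its part in the differences that involve the GHR-null pool was not tested. The MDR2-null against wild-type comparison does not use that pool.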

How the results depend on the processing

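No paired analysis was possible because each genotype has 1 array. The medians with MDR2 loss stayed below 0 under every filter, scaling and row choice run, between -0.27 and -0.20 without GHR loss and between -0.40 and -0.29 on the GHR-null background. All 84 alternative values of the 21 single differences past 1.5-fold kept their direction. Little else could result, since the scalings moved the median of all genes by no more than 0.12 in size, far less than 1.5-fold. The mean of rows also changes nothing for a gene with 1 row. Median centring shifted all genes by -0.12 (median) between GHR-null and wild type. It turned the members' median there to -0.051 (counts at 1.2-fold 8 lower and 1 higher, 0 higher at 1.5-fold), and that of the double-null against the MDR2-null pool to -0.076 (2 higher at 1.2-fold); cyclic loess turned that second median to -0.0068. With median centring the 1.5-fold lower counts were 5 for double-null against GHR-null and 9 for double-null against wild type. Hepatocyte centring shifted all genes by 0.11 in the double-null against the wild-type pool and gave there a members' median of -0.19, with 2 lower at 1.5-fold, 23 lower and 1 higher at 1.2-fold. It gave 5 lower at 1.5-fold in the double-null against the GHR-null pool, 3 lower and 9 higher at 1.2-fold in the GHR-null against the wild-type pool, and 3 lower in the double-null against the MDR2-null pool. Cyclic loess gave 1 higher at 1.2-fold in the double-null against the wild-type pool. The filter at 329, the 75th percentile, gave 0 higher at 1.5-fold in the GHR-null pool and 3 lower at 1.2-fold in double-null against MDR2-null livers, and no filter gave 1 higher at 1.2-fold in the MDR2-null pool. With a 2-fold threshold 1, 0 and 1 members were lower in the MDR2-null against wild type, the double-null against GHR-null and the double-null against wild type, and 0 higher in the GHR-null pool. The mean of rows and, chosen after seeing the data, members with 1 row each gave 0 higher at 1.2-fold in the double-null against the GHR-null pool, and the 1-row choice 3 lower in the GHR-null pool. Limma called 2 members for MDR2 with trend and robust settings, 0 with cyclic loess, 0 with median centring and 0 without the filter, with 23 to 28 at an unadjusted p under 0.05. Apart from what each alternative's construction sets, the cause was not tested. The RNA pools hide variation between mice, and intensities near the filter carry the least signal over background.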
